A study of Mus musculus with 2 samples.

Results

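The S phase genes described here are 37 protein-coding genes whose products replicate DNA, supply its building blocks or wrap the new strands in chromatin. The list was given by name, and each of the 37 was found among the 32286 features of both count matrices. The rule that names them uses no measured value. They were read from droplet single-cell RNA-seq of epidermis from mouse skin, with 1 library for each of 2 genotypes. Mice of the control genotype, Involucrin-CreER/Rosa-SmoM2, carry an inducible Cre under the involucrin promoter that switches on SmoM2, an active form of the hedgehog signal transducer Smoothened. The GOF genotype, written Involucrin-CreER/Rosa-SmoM2/Krt14rtTA/Survivin GOF, has the same alleles plus a Krt14-driven rtTA and a Survivin gain-of-function allele. SmoM2 is thus present in both groups, and neither is a wild type. Per the labels, the sort took YFP-positive cells with high integrin α6 and no CD34, and the design text adds that GOF cells carried a fluorescent mark of the Survivin transgene. The ages, the number of mice per library and how and for how long the transgenes were induced are not stated in the labels. The series asks how raised Survivin affects the start of hedgehog-driven basal cell carcinoma.

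Before S phase, the MCM helicase is loaded at origins with the help of Cdc6. Cdc45 and the GINS complex then start it, and polymerases copy the strands around the sliding clamp Pcna. Most of these genes are targets of E2F factors, which are held back by the retinoblastoma protein until a cell commits to division. In epidermis, dividing cells lie mostly in the basal layer, and cells that turn on Krt1 and Krt10 leave the cycle.

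With 1 library per genotype there is no replicate, no test and no p-value. All 95% intervals below (exact Poisson for levels, exact conditional for ratios, Clopper-Pearson for shares) cover counting error only, not the spread between mice. After the filter on cells, 10993 control cells (median 7717 UMIs, unique molecular identifiers) and 6922 GOF cells (median 12651.5) remained. Because GOF cells were deeper, each cell was thinned at random to 3000 UMIs, which left 10901 control and 6911 GOF cells. Levels are UMIs per 1000000 UMIs in the thinned cells (CPM). They come from 3' tags and are not compared between genes. Birc5, which encodes Survivin, stood at 52.2 CPM in control and 750.5 in GOF cells, in the direction of the labels. The keratins Krt5 and Krt14 were abundant in both libraries (6785 and 13373 CPM in control, 7857 and 16229 in GOF), and the endothelial markers summed to 0.795 and 0.579. YFP, a mark of the sort, had 12.7 and 6.85 CPM. The libraries also differed in sex: 8036 control cells were called male by Y-linked transcripts and 32 female by Xist, against 1905 and 3905 GOF cells. In addition 22 barcodes occurred in both libraries. Library and genotype cannot be told apart. Sex differed in part only, so values in male-called cells are given beside some of the results.

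Cycle classes were set with genes that are not among the 37. Replication-marked cells had at least 5 UMIs of 20 other replication genes such as Mcm3, Mcm7 and Tk1, with at most 1 UMI of a mitotic core of 12 genes such as Ccnb1, Plk1 and Cenpf. Both-marked cells passed the replication mark and had at least 2 mitotic UMIs, and mitotic-marked cells had at least 2 mitotic UMIs without the replication mark. Non-cycling cells had neither. Of the control cells 4.63% were replication-marked, 6.87% both-marked, 22.0% mitotic-marked and 49.6% non-cycling. The GOF shares were 6.48%, 7.16%, 7.60% and 70.7%. The remaining 16.9% of control and 8.07% of GOF cells had 1 mitotic UMI without the replication mark and belong to no class. There were 308 control and 205 GOF cells 1 UMI below the replication cut. Some cells high in Krt1 and Krt10 carried the mitotic mark. Among the top 10% of cells by these genes, 11.1% of control and 3.49% of GOF cells were mitotic-marked, while 1.04% and 0.837% were replication-marked. Whether marked cells were dividing was not measured.

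The S phase genes were several-fold higher in replication-marked than in non-cycling cells. They differed in whether cells that also held mitotic RNA had less or more of them. Summed over the 37 genes, the level went from 830.1 CPM in non-cycling control cells to 3751 in replication-marked, 3862 in both-marked and 1423 in mitotic-marked cells. The GOF sums were 875.3, 4199, 4702 and 1755. In counts per cell, a replication-marked cell held on average 11.3 (control) and 12.6 (GOF) of its 3000 UMIs from these genes, spread over 8.89 and 9.63 distinct members. A non-cycling cell held 2.49 and 2.63.

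**Figure D1:**
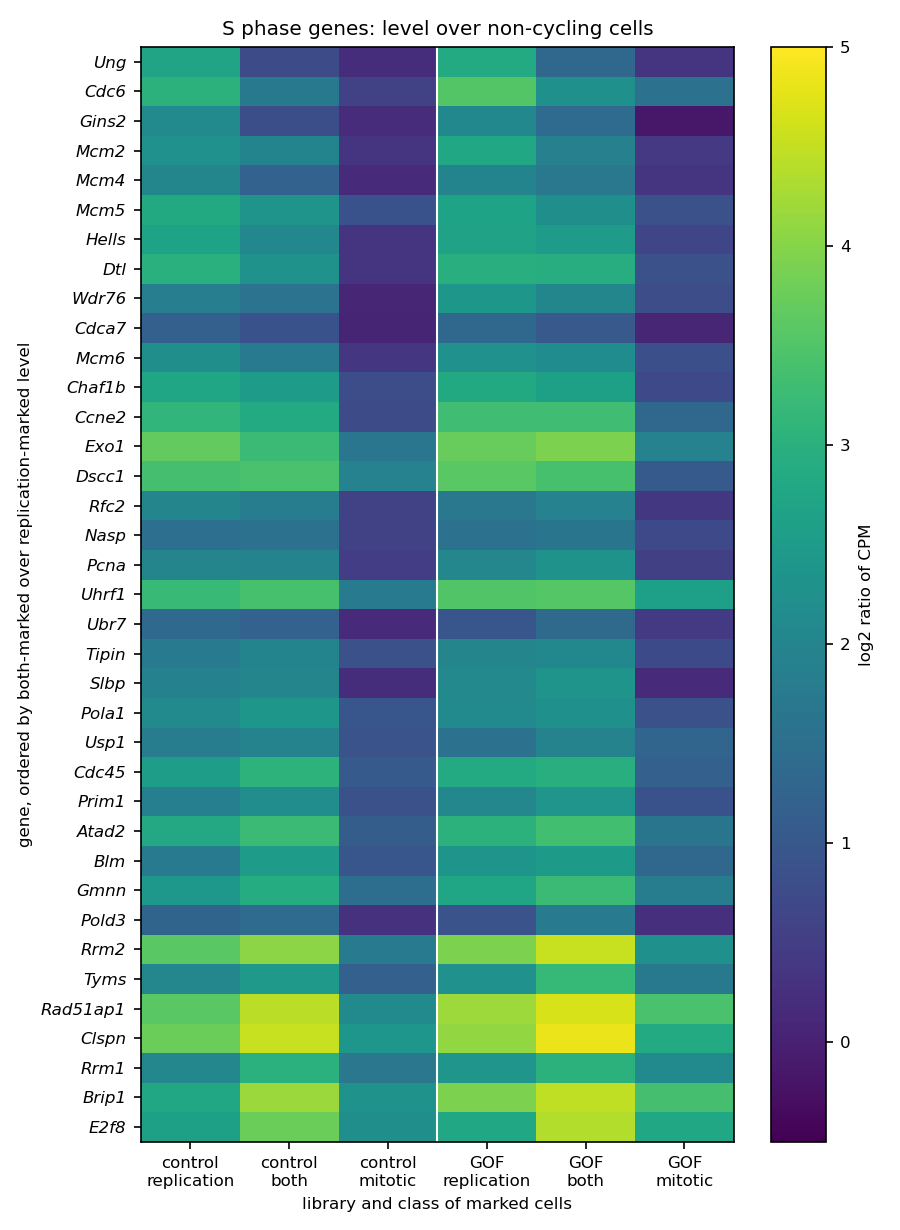
Each square gives the log2 ratio of a gene's level (CPM) in a class of marked cells over non-cycling cells, for 37 S phase genes (vertical axis) and 3 classes in each of the 2 libraries (horizontal axis). Genes at the top, such as Ung, are brightest in replication-marked cells, genes at the bottom, such as E2f8, in both-marked cells, and no gene is brightest in mitotic-marked cells.

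Compared with non-cycling cells, 35 of the 37 genes were at least 2-fold higher in replication-marked cells in both libraries, where 3.40% of all features tested passed the same mark. The median member was 4.85-fold higher in control and 6.37-fold in GOF cells, and every member's interval lay above 1 in both. The largest control ratios belonged to Clspn (13.6), Exo1 (12.8), Rad51ap1 (12.2), Rrm2 (12.0) and Dscc1 (10.4). In the GOF library Rad51ap1 led (18.3), followed by Clspn (17.3), Rrm2 (15.1), Brip1 (14.99) and Exo1 (13.2). Claspin carries the checkpoint signal from stalled forks, Rad51ap1 and Brip1 serve homologous recombination, Exo1 is an exonuclease of mismatch and break repair, and Rrm2 is the small subunit of ribonucleotide reductase. The smallest control ratios were those of Cdca7 (2.27), Pold3 (2.43), Ubr7 (2.61), Nasp (2.85) and Blm (3.35). In the GOF library Pold3 (1.89) and Ubr7 (1.97) fell just short of 2-fold, and Cdca7 (2.57), Nasp (2.94) and Usp1 (2.99) came next. Nasp is a histone chaperone, Pold3 an accessory subunit of polymerase delta, and Cdca7 a partner of the remodeller Hells. Marked cells of the 3 kinds carried 41.7% of Cdca7 UMIs in control and 33.1% in GOF, against 81.5% and 81.2% of Clspn UMIs. They were 3655 of the 10901 control cells but 1468 of the 6911 GOF cells, so these shares are not directly comparable between libraries. Barcodes with under 1500 genes and at most 10% mitochondrial UMIs (3796 in control and 513 in GOF) were left out of all other values. They had 1146 and 1341 CPM of the 37 genes summed. This was above the 830.1 and 875.3 of non-cycling cells and below the sums over all kept cells. These barcodes were neither thinned nor sorted by cycle class. How much of the UMIs in unmarked cells came from RNA outside the cells was not tested.

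The members differed in the class in which each was highest. Of the 37, 32 were highest in the same class in both libraries: 13 in replication-marked cells and 19 in both-marked cells. None was highest in mitotic-marked cells in either library. Pcna, Rfc2, Ubr7, Exo1 and Dscc1 differed between libraries. The share of all features highest in each class was not computed. Both-marked cells also held more replication marker UMIs, with means of 7.64 in control and 8.24 in GOF. Replication-marked cells had 7.14 and 7.20. The part of this difference in the order of the classes was not tested. The groups of 13 and 19 are cut from a graded order and include near ties. For Nasp, Uhrf1, Tipin, Cdc45, Wdr76, Ccne2 and Chaf1b, among others, the interval of both-marked over replication-marked level included 1 in both libraries. The motif shares below use these groups. Over 14 settings of depth, filters, class cuts and cell selection, 6 genes stayed in the first group in both libraries (Mcm4, Mcm5, Mcm6, Gins2, Ung and Hells) and 9 in the second (Tyms, Rrm1, Rrm2, Rad51ap1, Brip1, Clspn, Gmnn, Atad2 and E2f8). The first group consists of helicase subunits and an initiation factor with a uracil-removing enzyme and a chromatin remodeller. The second holds the 3 nucleotide-supply genes, 2 recombination genes, the checkpoint mediator, the licensing inhibitor geminin, the chromatin ATPase Atad2 and the repressor E2f8.

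Upstream sequences are shown for 3 genes of each group as examples of the E2F and CCAAT letters searched below. They were chosen after the matches were seen. RefSeq promoters of the build GRCm38.p6 (250 bases before to 50 after the annotated start) were matched for 27 of the 37 genes by symbol, beside 27025 genes in all. The E2F motif was searched as TTTGGCGC, TTTCCCGC, TTTGCCGC and TTTCGCGC, and the NF-Y box as CCAAT, each on both strands. E2F letters were present in 11 of the 27 windows (40.7%) and in 2.61% of all windows. By class, they were in 6 of 10 genes highest in replication-marked cells in both libraries, and in 4 of 15 highest in both-marked cells (26.7%). CCAAT had the other order: 4 of 10 and 13 of 15 (86.7%), with 41.1% of all windows. The cell cycle homology region, searched as TTTGAA on both strands and known from mitotic genes, was in 5 of the 27 (18.5%), beside 20.2% of all windows. Both motifs thus occurred in both groups, and the difference in share was not tested. These matches are letters in a window and were not measured as binding sites.

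The 250 bases before the start are printed 5' to 3' on the gene's strand. Capitals mark E2F letters in Mcm5 (chr8:75109259-75109508, plus strand), Mcm6 (chr1:128359706-128359955, minus strand) and Hells (chr19:38930740-38930989, plus strand), which were highest in replication-marked cells. They mark CCAAT or its reverse complement in Rrm1 (chr7:102441445-102441694, plus strand), Brip1 (chr11:86201194-86201443, minus strand) and Rad51ap1 (chr6:126939588-126939837, minus strand), which were highest in both-marked cells.
Mcm5: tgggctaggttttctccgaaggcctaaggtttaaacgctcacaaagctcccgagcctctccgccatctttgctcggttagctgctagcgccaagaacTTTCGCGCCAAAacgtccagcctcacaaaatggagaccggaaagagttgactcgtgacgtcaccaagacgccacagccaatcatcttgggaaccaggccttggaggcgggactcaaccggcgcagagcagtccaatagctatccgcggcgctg
Mcm6: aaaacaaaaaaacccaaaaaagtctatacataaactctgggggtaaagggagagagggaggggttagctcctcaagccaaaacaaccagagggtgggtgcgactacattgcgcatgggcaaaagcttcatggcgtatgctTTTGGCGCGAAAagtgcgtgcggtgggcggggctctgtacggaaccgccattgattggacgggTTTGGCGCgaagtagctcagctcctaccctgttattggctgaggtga
Hells: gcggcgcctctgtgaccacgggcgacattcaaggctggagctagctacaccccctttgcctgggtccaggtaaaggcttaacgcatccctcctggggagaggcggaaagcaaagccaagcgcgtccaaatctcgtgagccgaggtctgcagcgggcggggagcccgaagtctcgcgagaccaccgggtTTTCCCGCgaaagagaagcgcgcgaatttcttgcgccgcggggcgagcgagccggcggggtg
Rrm1: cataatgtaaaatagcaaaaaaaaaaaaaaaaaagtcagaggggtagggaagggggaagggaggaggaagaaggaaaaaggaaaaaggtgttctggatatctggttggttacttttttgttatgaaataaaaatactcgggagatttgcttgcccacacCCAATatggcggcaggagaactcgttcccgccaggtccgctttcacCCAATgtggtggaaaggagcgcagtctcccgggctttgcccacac
Brip1: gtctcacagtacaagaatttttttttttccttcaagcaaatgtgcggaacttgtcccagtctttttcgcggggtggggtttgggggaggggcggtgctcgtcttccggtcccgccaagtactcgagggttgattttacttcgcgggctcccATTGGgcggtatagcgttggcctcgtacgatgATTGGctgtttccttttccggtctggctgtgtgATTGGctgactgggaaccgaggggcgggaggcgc
Rad51ap1: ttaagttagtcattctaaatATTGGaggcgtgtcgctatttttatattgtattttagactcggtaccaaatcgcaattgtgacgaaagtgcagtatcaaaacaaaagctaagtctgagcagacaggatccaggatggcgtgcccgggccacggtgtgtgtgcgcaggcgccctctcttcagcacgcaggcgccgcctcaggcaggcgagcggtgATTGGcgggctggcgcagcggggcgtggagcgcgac

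In these stretches Mcm6 had 3 E2F matches and Mcm5 had 2, in each case including an overlapping pair on opposite strands, and Hells had 1. Brip1 had 3 CCAAT boxes, the last of them 29 bases before the start, and Rrm1 and Rad51ap1 had 2 each, the last 40 and 31 bases before it. Mcm5 and Mcm6 also held CCAAT letters in their windows (3 and 2), so the motifs did not sort the genes cleanly. For Mcm5 and Mcm6 the bases after the RefSeq start were not found at the start of an annotated transcript, while for the other 4 genes they were.

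**Figure D2:**
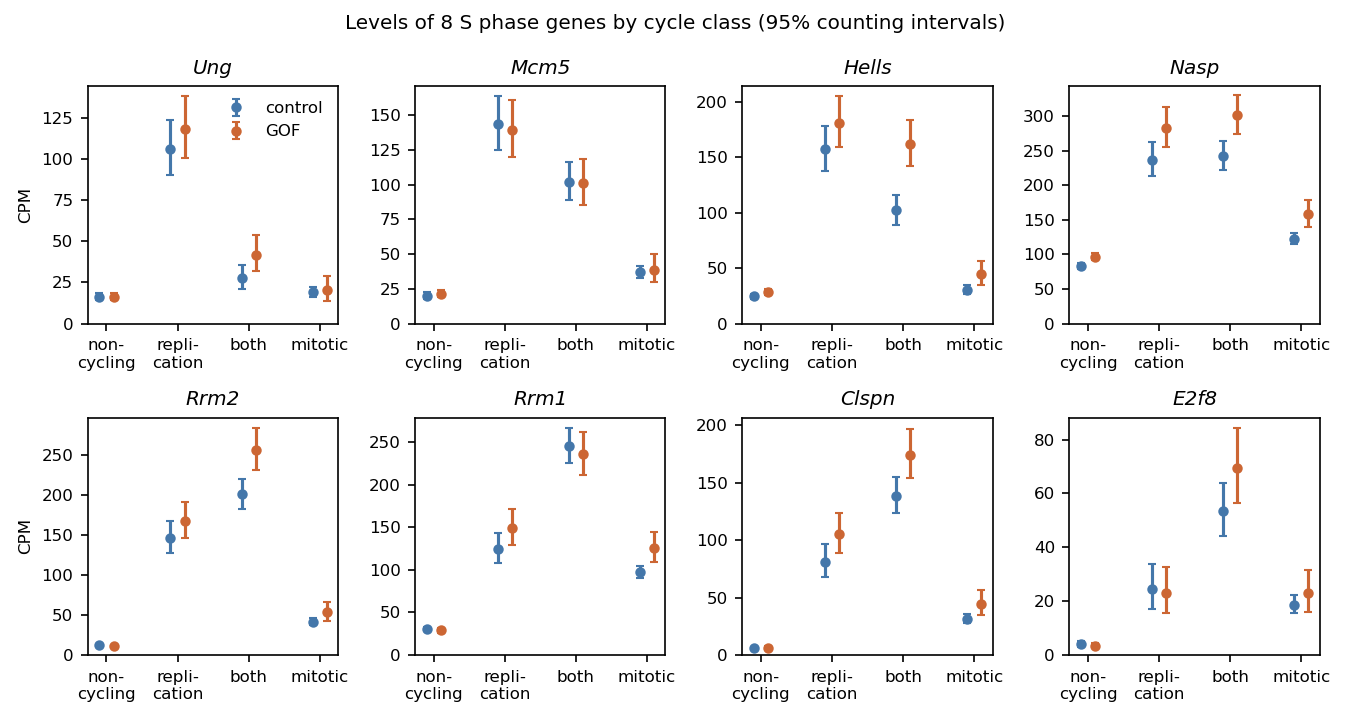
Levels of 8 S phase genes (CPM, vertical axes from 0) in 4 cycle classes, with 95% counting intervals, for the control and GOF libraries. Ung, Mcm5 and Hells are highest in replication-marked cells, Rrm2, Rrm1, Clspn and E2f8 in both-marked cells, and Nasp is near level across those classes.

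Among licensing and helicase genes, Mcm5 (ENSMUSG00000005410, chr8:75109569-75128439), a helicase subunit, had 20.1 CPM in non-cycling control cells. It reached 143 (interval 125 to 164) in replication-marked cells and 102 (89.1 to 116) in both-marked cells. The GOF values were 21.4, 139 (120 to 161) and 101 (85.5 to 119), so the both-marked level was the lower in both libraries. Cdc6, the loader of the helicase, showed the same order more steeply. It went from 23.1 to 9.35 CPM between replication-marked and both-marked control cells, and from 27.5 to 11.4 in GOF cells, on 17 to 37 UMIs per class. Gins2, a GINS subunit, went from 108 to 44.1 CPM in control and from 129 to 82.8 in GOF. Mcm2, Mcm4 and Mcm6 were lower in both-marked than in replication-marked cells in each library. For each of them the interval of that ratio included 1 in 1 library. It was 0.645 to 1.04 for Mcm2 in control, and 0.660 to 1.05 for Mcm4 and 0.7725 to 1.115 for Mcm6 in GOF. Cdc45 did not follow its helicase partners, at 25.7 and then 36.1 CPM in control, and 35.0 and 37.04 in GOF. Gmnn encodes geminin, which blocks renewed loading once S phase has begun. Its level was 93.7 in replication-marked and 129.5 in both-marked control cells, and 106 and 152 in GOF cells, opposite to Cdc6 and the MCM genes.

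Ung (ENSMUSG00000029591, chr5:114130386-114139323) had the lowest ratio of both-marked to replication-marked level of all 37, in both libraries. The enzyme removes uracil from new DNA. Its level was 16.3 CPM in non-cycling cells of both libraries and 106 (interval 90.5 to 124) in replication-marked control cells. In both-marked control cells it was 27.6 (21.2 to 35.4) and in mitotic-marked cells 19.02. The GOF values were 118, 41.8 and 20.3. The both-marked level was 0.26 times the replication-marked level in control (0.191 to 0.350) and 0.353 times in GOF (0.259 to 0.476). In both-marked cells Ung thus lay nearer to its non-cycling than to its replication-marked level, in both libraries.

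The nucleotide-supply genes had the opposite order. Rrm1 (ENSMUSG00000030978, chr7:102441695-102469771), the large subunit of ribonucleotide reductase, went from 125 (108 to 144) in replication-marked to 246 (226 to 267) in both-marked control cells. In GOF cells it was 149.6 (129.6 to 172) and 236 (212 to 262). Mitotic-marked cells had 97.0 and 126 CPM, or 0.778 and 0.841 times the replication-marked level, the highest such ratio of any member in control. Rrm2, whose protein limits the enzyme's activity, went from 147 to 201 CPM between the first classes in control and from 167 to 256 in GOF, and was down to 41.6 and 53.3 in mitotic-marked cells. Thymidylate synthase, encoded by Tyms, went from 169.6 to 225 in control and from 142 to 263 in GOF.

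The fork, checkpoint and repair genes were mixed. Clspn (ENSMUSG00000042489, chr4:126556935-126593903) was at 5.99 and 6.07 CPM in non-cycling control and GOF cells. It reached 81.2 and 105 in replication-marked and 138 and 174 in both-marked cells. Dtl, an adaptor of the ligase that destroys Cdt1 at Pcna, went the other way in control, from 79.2 to 49.4. In GOF it was nearly level, at 73.7 and 71.4 (ratio 0.969, 0.730 to 1.29). Rad51ap1 went from 49.5 to 87.7 and from 57.3 to 80.1, and Brip1, a helicase that works with Brca1, from 15.2 to 40.1 and from 32.7 to 48.5. Pcna itself was at 324 and 315 CPM in control and at 361 and 436 in GOF, so its order differed between libraries. Of the 2 regulators, Ccne2 (cyclin E2, which drives entry into S phase) was at 38.3 and 32.0 in control and 49.9 and 49.2 in GOF. E2f8 (ENSMUSG00000046179, chr7:48866429-48881596), a repressor of E2F targets, went from 24.4 (17.2 to 33.7) to 53.4 (44.3 to 63.9) in control and from 23.1 (15.7 to 32.7) to 69.4 (56.6 to 84.1) in GOF.

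Chromatin genes held members of both kinds. Hells went from 157 to 102 CPM between replication-marked and both-marked control cells, and was at 181 and 162 in GOF cells, where the intervals overlap. Atad2 went from 138 to 185 and from 161 to 199. Uhrf1, which guides DNA methylation to new strands, was at 123 and 139.7 in control and 153 and 159 in GOF. Slbp, the histone mRNA binding protein, was at 189 and 199.8 in control and 198 and 236 in GOF. Over all 37 genes, the log2 ratio of both-marked to replication-marked levels ranked similarly in the 2 libraries (Spearman 0.81 across genes, which are not independent replicates).

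In mitotic-marked cells most S phase genes lay below their replication-marked level, and some stayed well above the non-cycling one. Compared with replication-marked cells, 21 of 35 members with enough UMIs were at least 2-fold lower in both libraries, against 1.11% of all features tested. The lowest ratios were those of Dtl (0.16), Ung (0.179), Cdc6 (0.18), Ccne2 (0.192) and Hells (0.194) in control, and of Ung (0.172), Dscc1 (0.175), Mcm2 (0.194), Gins2 (0.217) and Chaf1b (0.229) in GOF. Compared with non-cycling cells, 11 of 34 members were at least 2-fold higher in both libraries (2.41% of features). They were Tyms, Rrm1, Rrm2, Rad51ap1, Brip1, Clspn, Gmnn, Atad2, E2f8, Uhrf1 and Cdc45. The control ratios were highest for Clspn (5.26), Brip1 (4.94), E2f8 (4.75) and Rad51ap1 (4.40), and the GOF ratios for Rad51ap1 (10.7), Brip1 (10.5), Clspn (7.32) and E2f8 (6.84). All 9 genes that were highest in both-marked cells under every setting are among these 11.

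**Figure D3:**
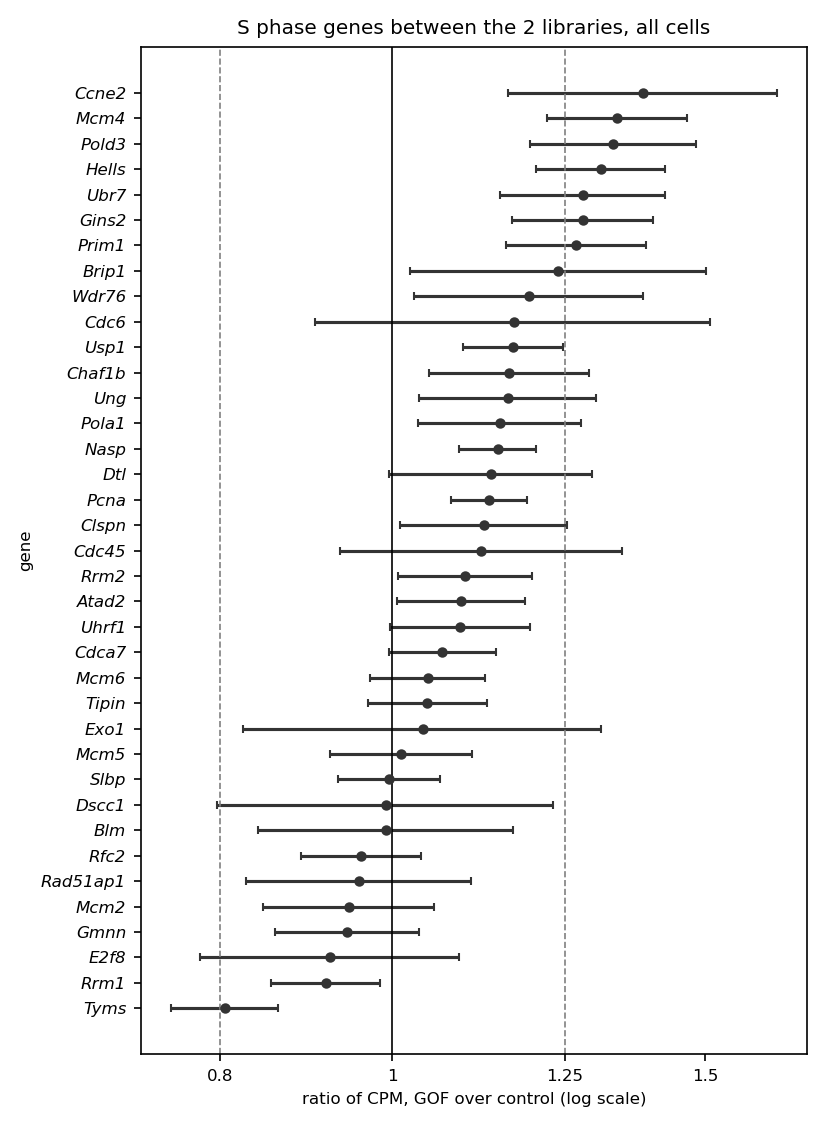
Ratio of the level in GOF cells over control cells (horizontal axis, log scale) for each of the 37 S phase genes over all cells thinned to 3000 UMIs, with 95% counting intervals and dashed lines at 20% lower and 25% higher. Ccne2 is highest at 1.38 and Tyms lowest at 0.805.

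Between the genotypes the S phase genes were close in level. Over all cells they summed to 1334 CPM in control and 1452 in GOF, a ratio of 1.09 (1.07 to 1.10), or 1.08 in male-called cells alone. The median member had a log2 ratio of 0.17 and the median feature 0.07. The GOF level was at least 25% higher for 7 of the 37, where 16.4% of all features tested passed the same mark, and at least 20% lower for 0 of the 37, beside 10.6% of features. Neither count sets the genes apart from the background. Ccne2 went from 8.68 to 12.0 CPM (1.38, 1.16 to 1.65), Mcm4 from 31.8 to 42.5 (1.34) and Pold3 from 22.7 to 30.2 (1.33). Hells (37.9 and 49.7), Gins2 (32.3 and 41.3), Ubr7 (23.5 and 30.1) and Prim1 (32.6 and 41.3), a primase subunit, had ratios of 1.31, 1.28, 1.28 and 1.27. At the other end, Tyms stood at 73.9 in control and 59.5 in GOF (0.805, 0.751 to 0.863) and Rrm1 at 65.6 and 60.2 (0.917, 0.855 to 0.984). These were the only members whose counting interval lay below 1, while 18 lay above it and 17 included it. The shares of all features with such intervals were not computed, so these counts do not set the genes apart. The Rrm1 ratio was 1.01 both without thinning and at 2000 UMIs a cell, with intervals that included 1, so its direction depends on the depth used. E2f8 (0.923), Gmnn (0.943) and Mcm2 (0.945) came next, with intervals that included 1.

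When clusters with over 90% of their cells from 1 library were left out, 2 members and not 7 passed that mark, and the summed ratio was 1.06. The share of all features that passed without these clusters was not computed. Pola1, which is X-linked in mouse, had 25.7 and 29.5 CPM, a ratio of 1.15 between libraries that also differ in sex. For comparison, the 12 mitotic core genes summed to 716 CPM in control and 447 in GOF, and 10 of them were at least 20% lower in GOF. The 40 other G2/M genes had 22 at least 20% lower, led by Kif2c (15.2 and 9.36 CPM), Cenpa (86.0 and 54.5) and Psrc1 (15.1 and 9.69). The 20 other replication genes had 2 at least 25% higher, Orc2 (22.3 and 33.8) and Hat1 (48.4 and 61.4), and 0 lower. The share of mitotic-marked cells (22.0% in control, 7.60% in GOF) depended on the library-specific clusters: without them it was 16.7% and 10.3%. The difference between the S phase and the mitotic ratios was not tested.

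Within a class of cells the summed GOF level of the S phase genes was above control in marked cells and close to control in non-cycling cells. The summed ratio was 1.12 (1.08 to 1.16) in replication-marked, 1.22 (1.18 to 1.26) in both-marked, 1.23 (1.18 to 1.29) in mitotic-marked and 1.05 (1.03 to 1.08) in non-cycling cells. At least 25% higher were 9 of 37 members in replication-marked cells (19.8% of features), 16 of 36 in both-marked cells (16.5%), 17 of 36 in mitotic-marked cells (27.0%) and 4 of 37 in non-cycling cells (17.5%). The count in replication-marked cells lay near the share of features. These values were not computed without the library-specific clusters. In both-marked cells the largest ratio was that of Gins2 (44.1 and 82.8 CPM, 1.88, 1.43 to 2.48). Mcm4 followed (60.5 and 99.0, 1.64), then Pold3 (49.8 and 80.1, 1.61), Hells (102 and 162, 1.59) and Ccne2 (32.0 and 49.2, 1.53). In mitotic-marked cells Brip1 (11.0 and 22.9), Rad51ap1 (17.9 and 33.6), Uhrf1 (45.9 and 83.2) and Usp1 (81.9 and 131) had intervals that lay wholly above a ratio 25% over 1. Mitotic-marked cells also differed in their mark, with a mean of 6.32 mitotic UMIs in control and 9.09 in GOF cells, and in Krt1 plus Krt10 (12.3 and 6.12 UMIs per cell). Both-marked cells held a mean of 7.64 replication marker UMIs in control and 8.24 in GOF. The part of these differences in the S phase values was not tested. Tyms, lower in GOF over all cells, was at 41.1 and 29.1 CPM in non-cycling cells but at 225 and 263 in both-marked cells.

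**Figure D4:**
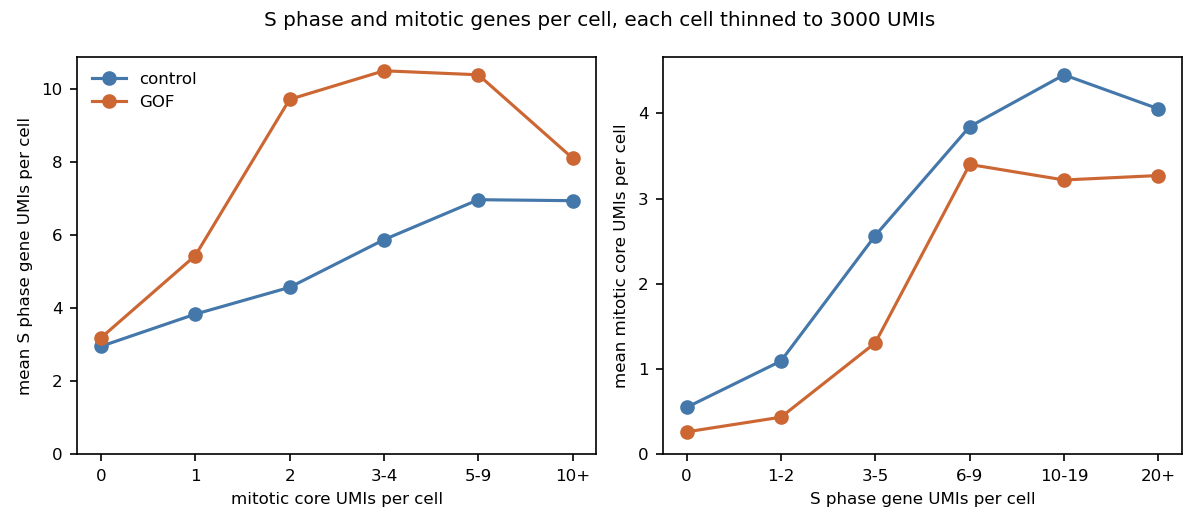
Left, mean UMIs of the 37 S phase genes per cell over bins of mitotic core UMIs; right, the reverse, in cells thinned to 3000 UMIs of the control and GOF libraries. On the left the GOF mean is highest, at 10.5, in cells with 3 to 4 mitotic UMIs and is 8.11 at 10 or more, while the control mean climbs to 6.98.

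Cell by cell, S phase UMIs were more numerous in cells with a few mitotic UMIs than in cells with none, and in the GOF library fewer again at the highest mitotic counts. Cells with 0 mitotic UMIs held a mean of 2.95 S phase UMIs in control and 3.19 in GOF. With 1 mitotic UMI the means were 3.84 and 5.44, and with 2 they were 4.57 and 9.73. GOF cells had 10.5 in the bin of 3 to 4, their highest, and 10.4 from 5 to 9 and 8.11 at 10 or more. Control cells stood at 5.88, 6.98 and 6.95 in those bins. Among cells with 2 mitotic UMIs, the share with at least 10 S phase UMIs was 9.42% in control and 46.7% in GOF. Across all cells Pearson's r between S phase and mitotic UMIs was 0.25 in control and 0.26 in GOF, and within marked cells it was −0.04 and −0.24. Marked cells were chosen for passing either the replication or the mitotic cut, which shapes that value. Among cells with a mitotic UMI r was 0.18 in control and 0.05 in GOF. The r between S phase genes and the 20 replication markers was 0.71 and 0.78 over all cells. All are descriptions across cells that share a library, and sparse counts lower them. Neither the values per bin nor r were computed without the library-specific clusters.

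At the upper end, 9.58% of control cells (9.03 to 10.1) and 13.01% of GOF cells (12.2 to 13.8) had at least 10 S phase UMIs. At the lower end 11.5% and 12.8% had none. These shares were not computed without the library-specific clusters. The share of replication-marked and both-marked cells together was 11.5% in control and 13.6% in GOF with those clusters. Without them it was 14.7% and 14.6%. Cells with no S phase UMI averaged 0.548 and 0.261 mitotic UMIs. Those with at least 20 averaged 4.05 and 3.27, and 63.9% and 63.8% of them had at least 2 mitotic UMIs.

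**Figure D5:**
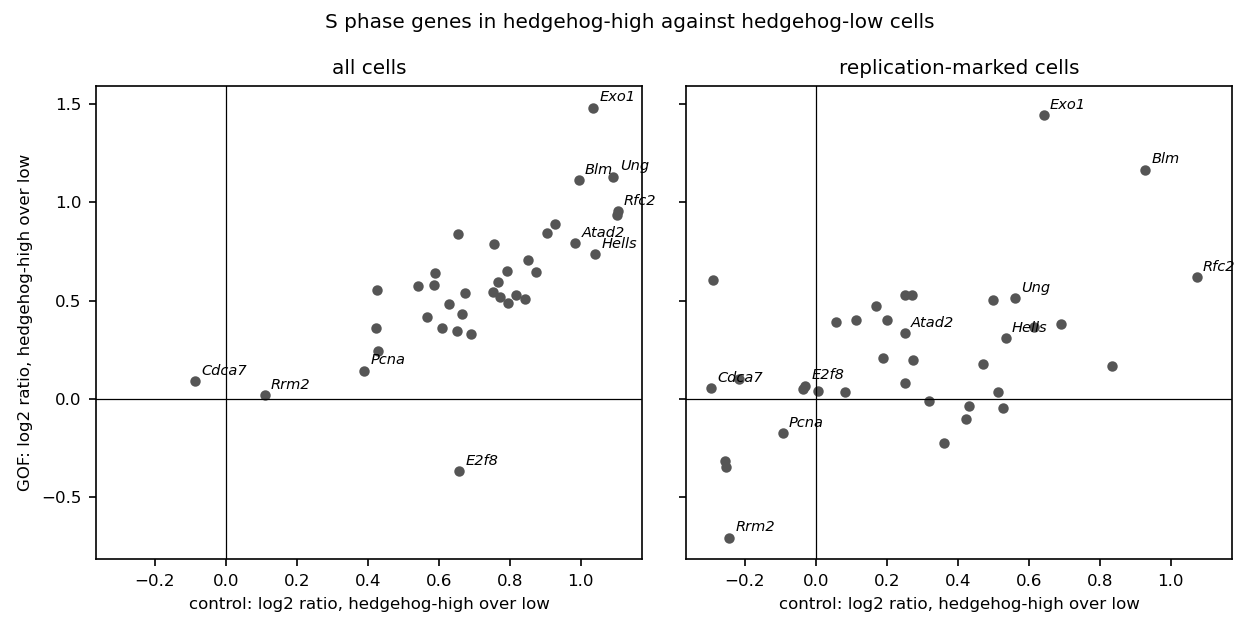
Each point is 1 of the 37 S phase genes, with the log2 ratio of its level in hedgehog-high over hedgehog-low cells in the control (horizontal axis) and GOF library (vertical axis), over all cells (left) and within replication-marked cells (right). Over all cells most points lie in the upper right, apart from Cdca7, Rrm2 and E2f8, and within replication-marked cells they scatter around lower values.

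Hedgehog-high cells, those with at least 2 UMIs summed over a list of hedgehog target genes that includes Ptch1, Gli1, Hhip and Foxe1, made up 20.5% of control and 15.01% of GOF cells. They held more YFP (28.5 and 27.6 CPM, against 6.43 and 1.66 in cells with none of these UMIs) and more Smo (155 and 159, against 64.2 and 60.4), the gene whose active form the mice carry. In them the S phase genes were higher. Summed levels were 1818 against 1158 CPM in control (1.57, 1.54 to 1.61) and 1914 against 1331 in GOF (1.44, 1.40 to 1.48). At least 25% higher in both libraries were 32 of the 37 genes. This mark was passed by 28.6% of all features, whose median log2 ratios were 0.22 and 0.18. In male-called cells alone the count was 20, and without the library-specific clusters it was 22. Both settings held fewer cells, which can leave fewer members with enough UMIs. Their shares of all features were not computed.

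The largest hedgehog ratios in control were those of Rfc2 (2.15, 1.93 to 2.39), a subunit of the clamp loader, Dtl (2.15), Ung (2.13), Hells (2.06) and Exo1 (2.05). In GOF they were those of Exo1 (2.79, 1.82 to 4.23), Ung (2.19), Blm (2.16), Rfc2 (1.94) and Dtl (1.91). Rfc2 had 86.8 CPM in hedgehog-high and 40.4 in hedgehog-low control cells, and 82.9 and 42.8 in GOF. Ung had 35.5 and 16.7, and 46.0 and 21.0. At the lower end, Cdca7 (0.941 in control and 1.06 in GOF) and Rrm2 (1.08 and 1.01) had intervals that included 1 in both libraries. E2f8 had 15.97 CPM in hedgehog-high and 10.1 in hedgehog-low control cells (1.58, 1.24 to 2.004), but 8.68 and 11.2 in GOF cells (0.775, 0.496 to 1.17). Repair genes had the highest summed ratios of the 7 named roles in both libraries (1.79 and 1.84), and nucleotide-supply genes the lowest in control (1.38), with 1.16 in GOF.

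The hedgehog classes also differed in cycle class. Of hedgehog-high cells 8.28% of control and 8.87% of GOF cells were replication-marked, against 3.34% and 5.74% of hedgehog-low cells. Within non-cycling cells the summed S phase ratio was 1.51 (1.45 to 1.58) in control and 1.32 (1.26 to 1.38) in GOF, and 17 of 31 members with enough UMIs were at least 25% higher in both (26.9% of features). Chaf1b, a subunit of the chromatin assembly factor, was near 2-fold in both (1.99 and 2.03), as were Ung (2.49 and 2.18) and Dtl (1.93 and 2.52). Non-cycling cells could still hold replication marker UMIs below the cut of 5. Their mean was 1.30 in hedgehog-high and 0.83 in hedgehog-low non-cycling control cells, and 1.18 and 0.868 in GOF cells. The class thus does not hold cycle state constant, and the part of this in the summed ratio was not tested. Within replication-marked cells the ratio was 1.17 (1.11 to 1.24) and 1.13 (1.05 to 1.20), and 4 of 27 members passed in both (14.8% of features). Rfc2 had 2.10 (1.54 to 2.90) and 1.54 (1.05 to 2.23) there, and Usp1, a deubiquitinase of the Fanconi pathway, 1.41 (1.05 to 1.91) and 1.42 (1.02 to 1.96). They were the only members with intervals above 1 in both libraries in those cells, a pair chosen after their values were seen. Between the genotypes, 8 of the 37 members were at least 25% higher in hedgehog-high GOF than in hedgehog-high control cells (19.8% of features), led by Pold3 (28.5 and 40.5 CPM, 1.42, 1.13 to 1.79) and Mcm4 (42.8 and 60.8, 1.42, 1.17 to 1.71). Without the library-specific clusters that count was 1, and the share of all features was not computed. Suprabasal keratinocyte markers were lower in hedgehog-high cells in all 5 of 5 genes (12437 against 23650 CPM in control, 7652 against 20209 in GOF). The fibroblast list was higher (1097 against 264.5, and 2249 against 196.5), almost entirely through Dcn (1078 against 258, and 2238 against 195), while Lum had at most 2 UMIs in any of these groups. Lower in hedgehog-high cells were also the basal keratinocyte (13419 against 24560 CPM in control, 11933 against 28642 in GOF), sebaceous (450.2 against 1089, and 115 against 599) and melanocyte lists (116 against 277, and 45.0 against 530). The makeup of the classes thus differed widely, and its part in the S phase values was not tested.

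In non-cycling cells among the top 10% by Krt1 and Krt10, a cell held a mean of 1.54 S phase UMIs in control and 1.52 in GOF, beside 2.49 and 2.63 in all non-cycling cells. Their median depth before thinning was 8030 and 12826 UMIs, beside 7660 and 11655. Against the level over all cells, the genes differed. Ubr7, a ubiquitin ligase with a UBR box, had 86.1% and 87.3% of its level over all cells, Nasp 72.0% and 70.7%, and Pcna 52.0% and 49.1%. Rad51ap1 had 11.8% and 7.32%, and Ccne2 5.17% and 22.3%. Both rest on few cells: 0.539% and 0.321% of these cells had a Rad51ap1 UMI, and 0.135% and 0.803% a Ccne2 UMI. The level over all cells also includes marked cells. In all non-cycling cells Rad51ap1 was 2.27 times (0.845 to 8.57) its level in these cells in control and 2.93 times (0.767 to 24.95) in GOF. For Ccne2 the ratios were 9.75 (1.695 to 390.6) and 1.86 (0.763 to 5.905). Exo1 had 0 UMIs in 742 control and 623 GOF cells of this kind, which allows a share of cells with a UMI of up to 0.404% and 0.482% at 3000 UMIs a cell. At full depth 0.809% and 0.963% of these cells had an Exo1 UMI. The part of RNA from outside the cells in all of these levels was not tested.

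Related genes outside the list were also higher in replication-marked cells. Of the 20 other replication genes, 17 were at least 2-fold higher in replication-marked than in non-cycling cells in control and 16 in GOF. This mark was passed by 6.23% of all features in control and 4.83% in GOF. Pole, the catalytic subunit of polymerase epsilon, went from 6.73 to 40.3 CPM in control and from 7.37 to 39.4 in GOF, and the origin recognition subunit Orc1 from 2.65 to 13.9 and from 2.32 to 17.1. Of 15 E2F and G1/S regulators with enough UMIs, 10 and 9 passed 2-fold, beside the same shares of all features. E2f1 led in control (6.85 and 56.8 CPM, 8.29-fold) and was 7.46-fold higher in GOF, where Ccna2 led (2.87 and 44.6, 15.6-fold). In hedgehog-high cells, 18 and 15 of the 20 replication genes were at least 25% higher, beside 39.6% and 37.6% of all features. Pole stood at 2.15 and 2.32. E2f7, the close relative of E2f8, was 2.31-fold and 2.70-fold higher there, unlike E2f8 in the GOF library.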

How the data were processed

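Droplet single-cell RNA-seq of mouse skin epidermis was analysed from 2 libraries, 1 per genotype. The deposited values are counts of UMIs per gene and cell barcode. Cell Ranger 6.1.1, Seurat 4.2.0, R 4.3.0 and the build mm10 are listed in the submitters' processing notes. The labels name different chemistry versions for chip and library kit. The files held 24844 control barcodes (146216083 UMIs) and 11438 GOF barcodes (126329382 UMIs). The labels give 8046 cells for the control genotype, beside 10993 that passed the filters here.

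Cells were kept with at least 1500 genes and at most 10% mitochondrial UMIs, and thinned without replacement to 3000 UMIs (seed 1), which left out 92 control and 11 GOF cells. Features with at least 50 pooled UMIs in the 2 groups compared were set against a mark of 25% higher or 20% lower (libraries, hedgehog classes) or 2-fold (cycle classes). The replication cut of 5 UMIs was the smallest reached by at most 15% of cells. Scrublet's automatic threshold marked 0 barcodes and had thus not worked, so doublets were kept, and the top 6% of scores were left out as an alternative. Per comparison the 5 highest and lowest members are named, and of each other list up to 3 genes with the largest ratios. The list behind the hedgehog classes also holds a gene that is not reported here. Members and lists were chosen with earlier results of these data known. Gene coordinates come from GENCODE vM21. Python 3.11.15, numpy 2.4.6, scipy 1.17.1, pandas 2.3.3, scanpy 1.11.5, igraph 0.11.9 and matplotlib 3.10.9 were used. The ratio and thinning steps were tested on simulated data.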

Additional observations from a re-analysis of the deposited data

Results flagged for a closer look

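E2f8 differed in direction between the libraries in the hedgehog comparison, which is why it is listed here. Its level in hedgehog-high over hedgehog-low cells was 1.58-fold in control (interval 1.24 to 2.004) and 0.775-fold in GOF (0.496 to 1.17). The difference between the libraries was not tested, and with 1 library each it has no replicate check.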

How the results depend on the processing

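No paired analysis was possible because each genotype has 1 library and the labels give no replicate numbers. Fewer than 4 samples a group also leave no test for outlying samples. For the counts of members below, the share of all features was not computed under each setting. Settings with fewer cells or UMIs can also leave fewer members with enough UMIs. The count of members at least 25% higher in GOF (7) was 13 without thinning, 4 at 2000 UMIs, 2 without library-specific clusters and 4 after dividing by the median ratio of all features. The count at least 20% lower (0) was 1 with another thinning draw, at most 5% mitochondrial UMIs, male-called cells or the median scaling, and 2 at 2000 genes or more. The count higher in GOF within hedgehog-high cells (8) was 5 without thinning, without doublets, in male-called cells or at 200 pooled UMIs. It was 4 at 2000 UMIs, with another draw, the median scaling or a hedgehog cut of 3, 2 at 2000 genes or with full counts at equal cell weight, and 1 without library-specific clusters. The count higher in hedgehog-high cells (32) was 20 in male-called cells. The count higher in mitotic-marked cells (11) was 6 at 200 pooled UMIs and 17 with a mitotic cut of 3 and a replication cut at 8% of cells. The log2 ratio of the summed members (0.12) was 0.23 without thinning, 0.0650 at 2000 genes, 0.16 at 5% mitochondrial UMIs, 0.0829 without library-specific clusters and 0.0550 after median scaling. The log2 ratio of the share of mitotic-marked cells (−1.54) was −1.26 at 2000 UMIs, −0.70 without library-specific clusters, −1.14 with the stricter cuts and −0.92 with a mitotic cut of 5. That of the replication-marked and both-marked share (0.25) was 0.0855 at 2000 genes, 0.42 with the stricter cuts, and reversed to −0.0106 without library-specific clusters. Single members reversed as follows: Brip1 −0.12 and Ung −0.0392 in male-called cells, and Rrm1 0.0153 without thinning and 0.0154 at 2000 UMIs, all as log2 ratios of GOF over control. The causes were not tested. The mitotic cut of 5, the share ratios, the left-out shared barcodes and the equal cell weight were chosen after seeing the data. At 3000 UMIs a cell, low members such as Cdc6 rest on few UMIs per class.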
